A study of Mus musculus with 24 samples.

Results

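The S100 family was examined through 10 of its genes, S100a4, S100a6, S100a7a, S100a8, S100a9, S100a10, S100a11, S100a13, S100a14 and S100a16, which were looked up by symbol in a table of 54087 gene symbols. All 10 were found, and all 10 were among the 17094 genes that passed the filter on low counts. Counts were from dorsal skin of E18.5 mouse embryos, close to birth, of 3 genotypes: WT with the Dsg1 locus intact, HET with 1 deleted copy and KO with both copies deleted. The deletion takes out Dsg1a, Dsg1b and Dsg1c, the genes of desmoglein 1, a desmosomal cadherin of the upper epidermis. Per the study's methods it was made by CRISPR/Cas9 in C57BL/6J zygotes, the line descends from 1 founder, and both sexes were used. The study describes KO animals as dying soon after birth. Libraries that shared the number in their title and the genotype were summed, which gave 5 columns per genotype, called replicates 1 to 5 in ascending order of that number.

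S100 proteins are small calcium-binding proteins with EF-hand motifs that mostly act as dimers. S100A8 and S100A9 form calprotectin, which fills the cytosol of neutrophils, is made by stressed keratinocytes, withholds zinc and manganese from microbes and signals through TLR4 and RAGE when released. S100A7, represented in the mouse by S100a7a, is the psoriasin group of antimicrobial proteins of inflamed epidermis. These 3 are called alarmins here, and the other 7, which epithelial and mesenchymal cells make without an inflammatory signal and which bind annexins, myosin and other intracellular partners, are called constitutive.

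A few facts of the libraries bear on the values. Depth ran from 8.98 M to 21 M counts (M, mega) over the 24 libraries and from 15.3 M to 33.7 M over the 15 columns. The Dsg1 genes summed to 806 ± 112 counts per mega of TMM-adjusted library size (CPM) in WT, to 421 ± 51.7 in HET and to 0.548 ± 0.343 in KO (SD, n = 5 each), the order that the labels give. Skin was recognizable from 3 basal keratin genes (Krt5, Krt14 and Krt15) at 5309 to 7223 CPM in sum and 5 suprabasal genes at 53775 to 100874 CPM. HET replicate 3 and KO replicate 4 stood apart with 1617 and 3704 CPM of 5 brown adipocyte genes, against 39.3 to 356 CPM over the WT columns. In WT replicate 2 the libraries of title number 35 came from opposite sexes, one with Xist at 0.264 CPM and 4 Y-linked genes at 325 CPM and the other with 564 and 0.154 CPM, so this column was not 1 animal. The libraries of the other 8 repeated numbers agreed in these genes. By the same genes WT replicates 1, 3 and 4, HET replicates 2 and 3 and KO replicates 1 and 5 were female. The remaining columns, apart from WT replicate 2, were male, and sex was not in the fit. The labels do not say what the title number counts, so p-values measure the spread between these columns. In whole skin, fewer cells of a type and less RNA per cell cannot be told apart.

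All 10 genes lie on chromosome 3. In the GENCODE vM21 annotation of GRCm38 the order along the chromosome is S100a13, S100a14, S100a16, S100a4, S100a6, S100a7a, S100a8, S100a9, S100a11 and S100a10, with S100a3, S100a2 and S100a5 in between, and S100a9 is the member on the minus strand next to S100a8 on the plus strand. RefSeq promoter sequences (GRCm38.p6) were at hand for 8 of the 10 genes, S100a16 with 2 start sites. The 250 bases before the start of S100a8 and S100a9 are shown because these neighbours had the most similar counts of all members across columns, and those of S100a11 because it was the member whose WT and KO columns did not overlap. Capitals mark letters that a motif search matched.
S100a8, chr3:90668821-90669070, plus strand: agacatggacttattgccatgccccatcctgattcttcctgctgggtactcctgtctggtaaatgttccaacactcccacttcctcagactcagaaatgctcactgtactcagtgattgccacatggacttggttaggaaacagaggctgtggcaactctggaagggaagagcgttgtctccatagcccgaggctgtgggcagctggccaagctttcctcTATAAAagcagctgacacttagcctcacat
S100a9, chr3:90695722-90695971, minus strand: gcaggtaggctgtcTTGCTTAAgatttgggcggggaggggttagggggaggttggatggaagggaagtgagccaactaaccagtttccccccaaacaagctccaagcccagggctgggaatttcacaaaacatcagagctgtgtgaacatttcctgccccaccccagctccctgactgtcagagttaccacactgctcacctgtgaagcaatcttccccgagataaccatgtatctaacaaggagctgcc
S100a11, chr3:93520246-93520495, plus strand: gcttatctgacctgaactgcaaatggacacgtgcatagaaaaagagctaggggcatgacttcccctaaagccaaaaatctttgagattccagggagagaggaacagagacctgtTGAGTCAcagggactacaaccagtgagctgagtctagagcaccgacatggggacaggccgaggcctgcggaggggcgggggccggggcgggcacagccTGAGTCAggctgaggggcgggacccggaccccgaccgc

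The S100a8 window held a TATA box (TATAAA, searched on the gene's strand) from 30 to 25 bases before the start, and the S100a4 window held one from 31 to 26 bases before its start. Among 32851 promoter windows of this length 7.59% held it. The S100a9 window held 1 match to the C/EBP motif TTGCNNAA, from 236 to 229 bases before the start, and 9.56% of all windows held that motif on either strand. The S100a11 window held 2 matches to the AP-1 motif TGANTCA, from 136 to 130 and from 38 to 32 bases before the start, against 6.75% of windows with at least 1. An AP-1 match was also in the second window of S100a16. The STAT motif TTCNNNGAA, found in 7.02% of windows, was matched in S100a7a, and the NF-kB consensus, found in 7.91%, in none of the 8 genes. S100a6 and S100a13 held none of the 5 motifs. Matches are letters in a window, not shown binding sites.

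In WT skin the constitutive members were the abundant ones and the alarmins the scarce ones. Levels were divided by exon length (GENCODE vM21, exons of all transcripts of a gene merged). The mean WT level was 416 ± 65.1 CPM per kb for S100a14, an epithelial S100 protein. It was 334 ± 53.3 for S100a10, the partner of annexin A2, 286 ± 24.3 for S100a16 and 268 ± 9.52 for S100a11, the partner of annexin A1 (SD, n = 5 each). Each of these 4 overlapped the next in its WT range. Per kb, all 5 columns of S100a11 lay above those of S100a6, which binds calcyclin-binding protein and had 70.6 ± 15.1 CPM per kb. In CPM, not divided by length, the WT columns of these genes overlapped, at 131 to 142 for S100a11 and 83.4 to 133 for S100a6. S100a13, known for its part in the unconventional release of FGF1 and interleukin 1 alpha, followed with 28.7 ± 5.11. S100a4, a motility-related protein that binds non-muscle myosin, had 11.2 ± 4.2 and overlapped S100a9 at 10.9 ± 4.49, which overlapped S100a8 at 6.41 ± 2.48. S100a7a was last with 0.382 ± 0.177 CPM per kb, below every column of S100a8. In the annotation 51.7% of the exon bases of S100a4 are shared with Gm42674 on the same strand, so its count is uncertain, whereas no other member shared exon bases with another gene.

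**Figure D1:**
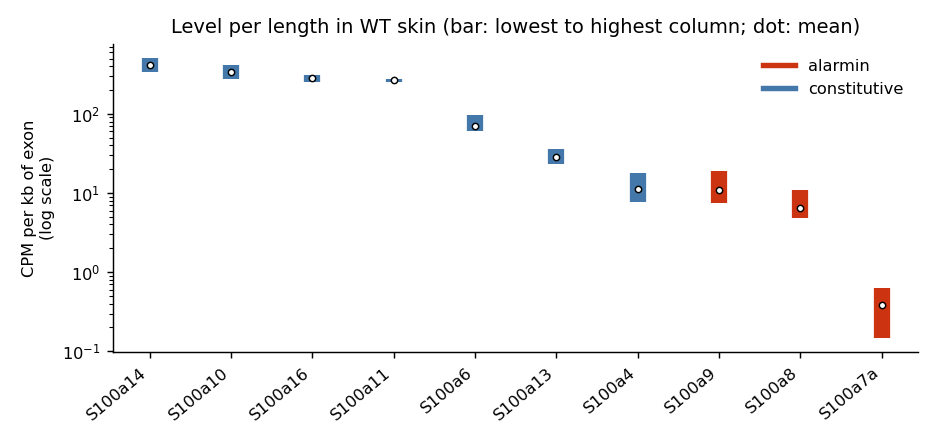
Level per exon length of the 10 S100 genes in WT skin, in CPM per kb on a log scale, with bars from the lowest to the highest of 5 columns and dots at the mean. S100a14, S100a10, S100a16 and S100a11 sit between 255 and 508 CPM per kb, and the alarmins between 0.146 and 18.8.

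KO was set against WT to see which transcripts differ in skin that lacks desmoglein 1. S100a8 and S100a9 averaged over 3-fold higher in KO, the largest differences among the members, and S100a7a, the third alarmin, had nearly equal means. Of the constitutive members S100a11 was slightly higher in KO in all 5 columns and S100a4 had a lower mean. None of the 10 was called, where a call needs at least 1 on the log2 scale in either direction with an adjusted p no higher than 0.1 (edgeR quasi-likelihood test, Benjamini-Hochberg adjustment over all 17094 genes), against 0.322% of all genes called in either direction and 0.135% called higher. At an unadjusted p below 0.05, 3 members were higher (S100a8, S100a9 and S100a11) against 10.1% of all genes, and 1 was lower (S100a4) against 9.18%. Of the members only S100a11 had separate WT and KO columns, against 1.61% of all genes with all KO columns above WT and 1.76% with all KO columns below.

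S100a8, the smaller subunit of calprotectin, had 3.35, 3.56, 4.01, 7.5 and 3.83 CPM in WT replicates 1 to 5. In HET it had 5.53, 3.72, 13, 5.27 and 8.95 CPM, and in KO 14.8, 9.22, 10.2, 32.9 and 6 CPM. KO replicate 4 was the highest of all 15 columns, and the groups overlapped because KO replicate 5 lay below WT replicate 4. The means were 4.45 ± 1.72 CPM in WT, 7.3 ± 3.73 in HET and 14.6 ± 10.7 in KO (SD, n = 5 each). The fitted log2 fold change KO vs WT was 1.71 (SE 0.45, edgeR adjusted p = 0.102), a 3.27-fold difference that missed the threshold.

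S100a9, the other subunit, had 3.93, 5.04, 4.96, 9.82 and 4.78 CPM in WT, and in HET 6.22, 4.39, 17.4, 5.92 and 9.52 CPM. In KO it had 18.45, 11.5, 13.4, 43.7 and 8.05 CPM. The same columns were high as for S100a8: WT replicate 4, HET replicate 3 and KO replicate 4 led their groups for both genes. In WT and HET these columns also led in the sum of 7 erythroid genes, with 5154 and 6073 CPM, whereas in KO replicate 3 led with 9045 CPM and replicate 4 had 5110. All 7 erythroid genes had a positive log2 fold change KO vs WT, with a median of 0.55, and 0 reached an unadjusted p below 0.05. The part of blood in the values of S100a8 and S100a9 was not tested. The mean of S100a9 was 5.71 ± 2.34 CPM in WT, 8.7 ± 5.23 in HET and 19 ± 14.3 in KO. The log2 fold change KO vs WT was 1.73 (SE 0.48, edgeR adjusted p = 0.109), a 3.31-fold difference. Between the libraries that share a title number the CPM of S100a8 differed 0.953 to 2.26 times and that of S100a9 0.966 to 2.04 times, over 9 numbers. The 2.04 came from number 35, with libraries of opposite sex, and without it the highest ratio for S100a9 was 1.43. For S100a8 the 2.26 came from HET replicate 2, with 2.55 and 5.76 CPM in libraries that agreed in sex.

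The calls of this pair turned on the settings. Both genes were called with DESeq2, where 0.579% of all genes were called higher (adjusted p = 0.0166 for S100a8 and 0.0209 for S100a9), and with limma-voom, where 0.158% were. They were also called with number 35 kept as 2 columns (0.342% of genes called higher), in title series 2 alone (0.202%) and with 24 separate libraries (0.786%). The last fit counts repeat libraries of 1 number as separate replicates, which lowers its p-values. In all, with that fit included, S100a8 was called under 9 of 26 alternatives and S100a9 under 8 of 26. Without WT replicate 2, the column of mixed sex, the log2 fold changes were 1.63 and 1.68 (edgeR adjusted p = 0.225 and 0.229). Leaving out KO replicate 4, the column with the most brown adipocyte RNA, gave log2 fold changes of 1.18 and 1.17 (edgeR adjusted p = 0.226 and 0.239). Within title series 1, with 3 libraries per genotype, the differences were 1.27 and 1.18 (edgeR adjusted p = 0.57 and 0.611). Within series 2, with 5 per genotype, they were 1.67 and 1.73 (edgeR adjusted p = 0.091 and 0.0908). KO replicate 4 had a library in series 2 only, so the fit of series 1 leaves it out. The sign was positive under every one of the 26 alternatives for both genes.

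S100a7a was barely detected, with 4 to 24 counts per column. Its levels were 0.437, 0.551, 0.569, 0.873 and 0.201 CPM in WT and 0.331, 0.516, 0.383, 1.08 and 0.667 CPM in KO, and the HET columns lay between 0.258 and 0.818 CPM. The groups lay within the same range, and the log2 fold change KO vs WT was 0.10 (SE 0.39, edgeR adjusted p = 0.905). Under 25 alternatives it ran from -1.01 to 0.34. The difference between S100a7a and the calprotectin genes was itself not tested.

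**Figure D2:**
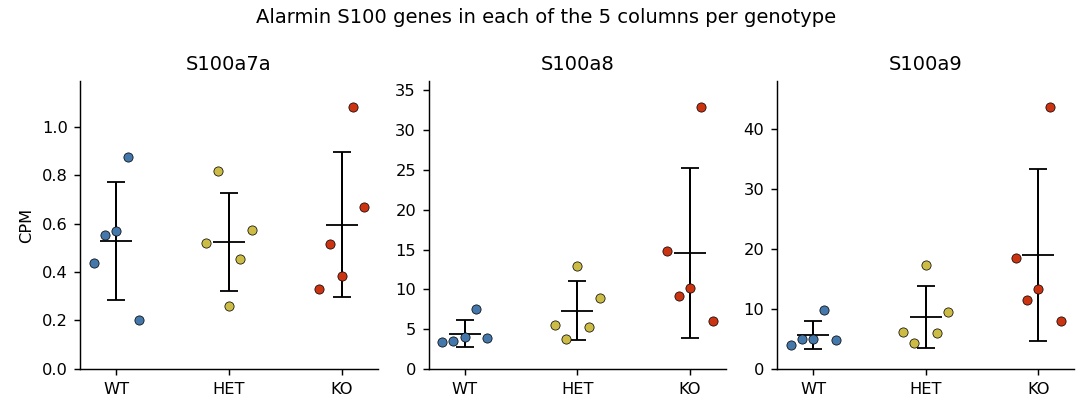
CPM of the alarmin genes S100a7a, S100a8 and S100a9 in each of 5 columns per genotype (points), with mean and SD (bars). For S100a8 and S100a9 the KO means of 14.6 and 19 CPM stand above WT means of 4.45 and 5.71, with KO replicate 4 far above the rest, and S100a7a overlaps throughout.

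Among constitutive members the differences were small. S100a11 had 131, 141, 142, 138 and 133 CPM in WT and 153, 172, 149, 180 and 160 CPM in KO. The lowest KO column lay above the highest WT column, and the HET columns at 129, 148, 128, 162 and 154 CPM overlapped both groups. The log2 fold change KO vs WT was 0.25 (SE 0.08, edgeR adjusted p = 0.133), a 1.19-fold difference that is far under the fold limit, and the adjusted p was 0.1 or below in 5 of 26 alternatives.

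S100a4 had 10.6, 6.67, 4.71, 4.44 and 6.4 CPM in WT, 6.77, 9.23, 5.41, 4.55 and 3.78 CPM in HET, and 3.22, 4.13, 4.34, 1.85 and 6.71 CPM in KO. KO replicates 1 to 4 lay below every WT column, and KO replicate 5 lay inside the WT range. The mean in KO was 61.8% of that in WT, with a log2 fold change of -0.69 (SE 0.32, edgeR adjusted p = 0.252).

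S100a10 had a mean of 405 ± 64.7 CPM in WT and of 342 ± 70.6 in KO, a log2 fold change of -0.24 (SE 0.13, edgeR adjusted p = 0.303). S100a16 averaged 463 ± 39.3 and 423 ± 60.4 CPM, a difference of -0.13 (SE 0.11). S100a14 had 719 ± 113 and 725 ± 137 CPM, a difference of 0.01 (SE 0.14). In these 3 abundant epithelial members the groups overlapped. The WT and KO columns spanned 274 to 507 CPM for S100a10, 351 to 502 for S100a16 and 581 to 877 for S100a14. For S100a10, KO replicates 1 to 3 (274, 331 and 311 CPM) lay below every WT column. KO replicate 4 had 334 CPM, as had WT replicate 4, the lowest of WT, and KO replicate 5 with 461 CPM lay inside the WT range. The adjusted p of S100a10 was 0.1 or below in 2 of 26 alternatives, and it was called in 0. The mean of S100a6 was 96.5 ± 20.7 CPM in WT and 101 ± 28.4 in KO (log2 fold change 0.07, SE 0.18), with WT replicate 1 (133 CPM) and KO replicate 4 (148 CPM) above the rest. S100a13 averaged 20.5 ± 3.65 and 20.8 ± 9 CPM, and without KO replicate 4 its log2 fold change turned from 0.02 to -0.28 (edgeR adjusted p = 0.533). The S100 genes have 511 to 1727 bases of merged exons. Over tested genes with under 1 kb of merged exons the median log2 fold change KO vs WT was -0.12. It was -0.08 at 1 to 2 kb, where S100a6, S100a7a, S100a10, S100a14 and S100a16 lie. Over 4 kb it was 0.05, against -0.01 over all 17094.

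**Figure D3:**
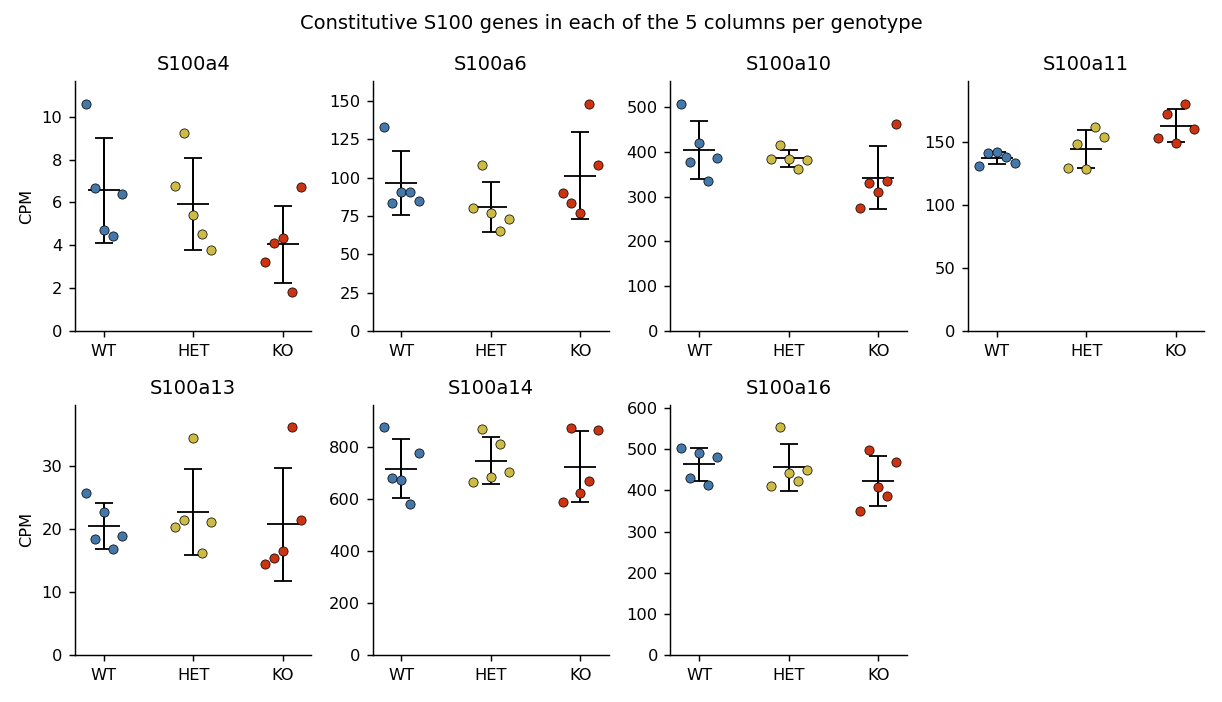
CPM of the 7 constitutive S100 genes in each of 5 columns per genotype (points), with mean and SD (bars). S100a11 runs from 131 to 142 CPM in WT and from 149 to 180 in KO, and the other 6 genes overlap between genotypes.

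Set side by side, the alarmins had a median log2 fold change KO vs WT of 1.71 over 3 genes and the constitutive members one of 0.01 over 7, against -0.01 over all genes tested. The alarmin median is the value of S100a8. S100a9, which ran together with it over the columns, had 1.73, and S100a7a had 0.10, so the median does not describe all 3. S100a8 and S100a9 together made up 0.571% ± 0.297 of the CPM of the 10 members in WT, 0.88% ± 0.518 in HET and 1.91% ± 1.39 in KO (SD, n = 5 each). The sum of the constitutive members was 1847 ± 224 CPM in WT, 1843 ± 168 in HET and 1780 ± 260 in KO. In CPM, which is not divided by length, the constitutive genes held most of the total in every genotype, and the pair reached 4.17% of it in the column where it was highest. The ratio of S100a9 to S100a8 was 1.28 ± 0.0899 in WT, 1.16 ± 0.107 in HET and 1.3 ± 0.0444 in KO, while their sum ran from 7.28 to 76.6 CPM.

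HET was set against WT to see whether the members differ when 1 copy of the cluster remains. With edgeR none of the 10 was called, as was no gene of the 17094 (0% called), and none reached an unadjusted p below 0.05, against 0.825% of genes higher and 0.755% lower. DESeq2 and limma-voom called none of the members either. No member's HET columns were separate from WT, against 0.14% of genes with HET above and 0.234% with HET below. S100a8 had the largest log2 fold change of 0.71 (SE 0.45, edgeR adjusted p = 1), followed by S100a9 with 0.61 (SE 0.47). Without HET replicate 3, the second column rich in brown adipocyte RNA, these values were 0.40 and 0.19. The other 8 members lay between -0.26 (S100a6, SE 0.18) and 0.15 (S100a13, SE 0.25).

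The comparison of KO with HET set the KO columns against a second control group, and shares its KO columns with KO vs WT. None of the members was called with edgeR, against 0.181% of all genes, nor with DESeq2 or limma-voom. At an unadjusted p below 0.05, 3 members were higher in KO (8.17% of all genes) and 0 lower (7.87%). These were S100a8 with a log2 fold change of 1.00 (SE 0.44, edgeR adjusted p = 0.289), S100a9 with 1.12 (SE 0.47, adjusted p = 0.269) and S100a11 with 0.18 (SE 0.08, adjusted p = 0.291). Without KO replicate 4 the values of S100a8 and S100a9 were 0.46 and 0.56. All 10 members overlapped between KO and HET, against 0.954% of genes with KO above and 1.3% with KO below without overlap. S100a4 had a value of -0.56 (SE 0.32) and S100a6 one of 0.33 (SE 0.18). The HET means of S100a8 and S100a9 thus lay between those of WT and KO. Their columns overlapped in HET vs WT and in KO vs HET, and neither gene was called in either comparison.

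**Figure D4:**
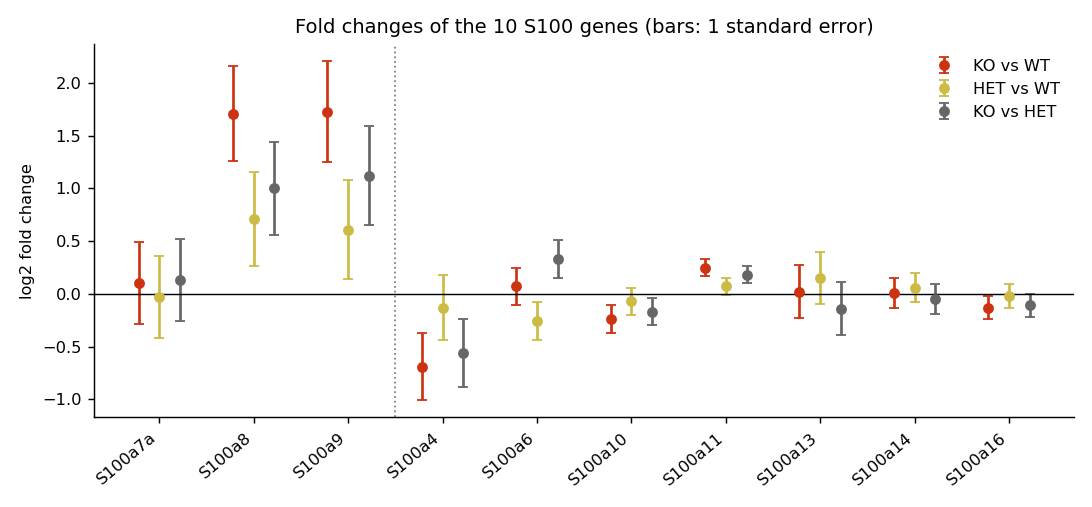
Log2 fold change of the 10 S100 genes in KO vs WT, HET vs WT and KO vs HET, with bars of 1 SE. The alarmins stand left of the dotted line. S100a8 and S100a9 sit at 1.71 and 1.73 in KO vs WT, and the constitutive genes between -0.69 and 0.25.

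The genes most like each alarmin were then looked up as a description, by Pearson's r of log2 CPM over the 15 columns of the 3 genotypes, which share depth and cell makeup within a column. For S100a8 these were S100a9 (r = 0.99), Cxcr2 (0.96), Mmp9 (0.94), Retnig (0.94) and Olfm4 (0.94). For S100a9 they were S100a8, Mmp9 (0.96), Olfm4 (0.95), Cxcr2 (0.94) and Lcn2 (0.94). Cxcr2 encodes the neutrophil receptor for CXC chemokines, Mmp9 a gelatinase of neutrophil granules, Olfm4 and Retnig (the spelling in the files for Retnlg) products of neutrophil subsets, and Lcn2 an iron-sequestering protein of neutrophils and stressed epithelium. Without KO replicates 1 and 4, which lay farthest from the median of S100a8, its r was 0.98 with S100a9, 0.90 with Cxcr2, 0.89 with Mmp9, 0.88 with Retnig and 0.93 with Olfm4 over 13 columns. Over the 10 WT and HET columns alone it was 0.98 with S100a9 and 0.88 with Cxcr2.

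Neutrophil markers went mostly in 1 direction, by uneven amounts. Of 15 genes on that list 12 were tested, and 11 of the 12 had a positive log2 fold change KO vs WT, with a median of 1.12. At an unadjusted p below 0.05, 4 were higher and 0 lower, against 10.1% and 9.18% of all genes, and 1, Cxcr2, was called, against 0.135% of genes called higher. Its log2 fold change was 2.31 (SE 0.54, edgeR adjusted p = 0.0891, called under 14 of 26 alternatives). Without KO replicate 4 it was 1.67 and not called (edgeR adjusted p = 0.18). Cxcr2 had 4 to 13 counts per column in WT and 12 to 72 in KO, and Retnig 4 to 18 and 9 to 58. Their fold changes and r values thus rest on few counts. Ctsg and Camp, genes of granule proteins, had log2 fold changes of 0.06 (SE 0.30) and -0.03 (SE 0.46). The summed level of the list was 16.6 to 20.4 CPM in WT, 17.1 to 32.7 in HET and 18.7 to 43.6 in KO. None of the 15 genes was at 0 in all columns, but Ly6g, a defining marker of mouse neutrophils, lay between 0 and 0.184 CPM. The proportions within the list were uneven. KO replicate 3 had the most Mpo (3.02 CPM) and Ngp (6.09 CPM) but 10.2 CPM of S100a8. The r with S100a8 was 0.27 for Mpo and 0.59 for Ngp. Elane, Prtn3, Ltf and Cebpe were also highest in KO replicate 3. Retnig, Mmp8, Mmp9, Csf3r, Cxcr2 and Itgam were highest in KO replicate 4, as S100a8 was, and Ly6g, Ctsg and Camp in HET columns. The part of neutrophils in the values of S100a8 and S100a9 was not tested.

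Of 4 stress keratins 3 were higher at an unadjusted p below 0.05 in KO vs WT (10.1% of all genes) and 1 was called (0.135%). The sum of the 4 was 589 to 865 CPM in WT, 575 to 1107 in HET and 674 to 1272 in KO. Most of this sum was Krt17, with 569 to 818 CPM in WT and 615 to 757 in KO. Krt17 was the 1 stress keratin with a negative log2 fold change KO vs WT (-0.11). The called gene, Krt16, a keratin of injured epidermis, had 15.4 to 37.7 CPM in WT and 440, 334, 54.5, 420 and 176 CPM in KO replicates 1 to 5, a log2 fold change of 3.52 (SE 0.60, edgeR adjusted p = 0.0333). It was called under 22 of 26 alternatives and not in series 1 alone (adjusted p = 0.551), without WT replicate 1 (0.105), without WT replicate 2 (0.121) or without both brown adipocyte columns (0.124). Its r with S100a8 was 0.56 over 15 columns, 0.13 without KO replicates 1 and 4 and -0.46 over the 10 WT and HET columns. KO replicate 3 was low for Krt16 among the KO columns and HET replicate 3 had 22.6 CPM of it, whereas both held over 10 CPM of S100a8. In KO replicates 1 to 5 Krt6a had 7.03, 3.02, 1.11, 53.3 and 2.29 CPM, and Krt6b 67.6, 26.7, 3.11, 31.4 and 14.3 CPM. Among the KO columns both were highest in replicates 1 and 4, as S100a8 was. All 5 suprabasal keratinocyte genes had a positive log2 fold change KO vs WT, with a median of 0.32. At an unadjusted p below 0.05, 3 of the 5 were higher, against 10.1% of all genes. Ivl, the gene of involucrin, had the smallest adjusted p of 0.0231 with a log2 fold change of 0.76, under the fold limit. Monocyte and macrophage markers summed to 298 to 472 CPM in WT and 280 to 505 in KO, and 0 of the 9 reached an unadjusted p below 0.05 in KO vs WT. The part of these cells in the values of S100a8 and S100a9 was not tested.

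**Figure D5:**
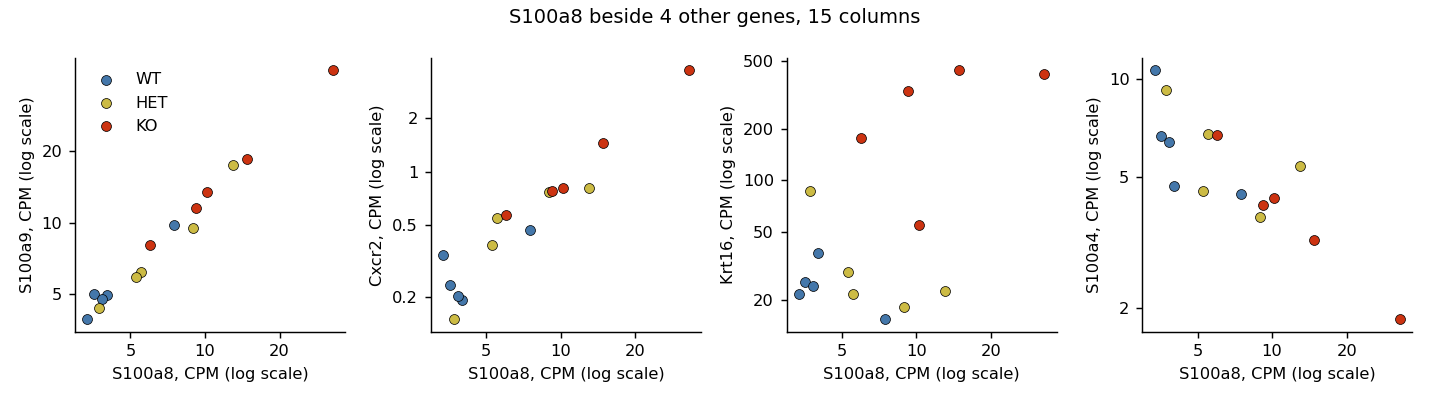
S100a8 CPM (x axis, log scale) beside S100a9, Cxcr2, Krt16 and S100a4 CPM (y axes, log scale) in the 15 columns, coloured by genotype. S100a9 and Cxcr2 follow S100a8 through all 3 genotypes (r = 0.99 and 0.96), Krt16 runs from 176 to 440 CPM in 4 KO columns whose S100a8 level spans 6 to 32.9 CPM, and S100a4 runs the other way (r = -0.85).

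The patterns of the other members were different from those of the pair. S100a7a was most like RP23-314K19.1 (r = 0.87), RP24-83B1.2 (0.84), Socs3 (0.79), Ptgs2 (0.78) and Gm26541 (0.77), of which Socs3 is a feedback inhibitor of cytokine signalling and Ptgs2 encodes cyclooxygenase 2. Its r with S100a8 was 0.16, and in counts this sparse a weak correlation is no finding. S100a4 ran opposite to S100a8 with r = -0.85 over 15 columns and -0.68 without KO replicates 1 and 4, and it was most like Ttc4 (0.93). S100a14 was most like Calm4 (0.91), a calmodulin-like gene of the epidermis, S100a16 like Lgals7 (0.95), the gene of galectin-7, and S100a10 like Rpl22l1 (0.96), a ribosomal protein paralog. S100a11 was most like Aqp9 (0.90), S100a6 like Tagln (0.85) and S100a13 like Gpx4 (0.98).

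Other S100 genes were checked in the same table. Of 9 looked up 7 were listed and 3 were tested, and none of the 3 was called in KO vs WT. S100a1, a cardiac and muscle S100 protein also made by other cells, had 91.9 CPM in HET replicate 3 and 137 CPM in KO replicate 4, against 10.5 to 33.7 CPM in the other 13 columns. S100b, best known from glia and adipocytes, had 16.6 and 23.8 CPM in the same columns against 2.52 to 6.31 in the others. The member S100a13 was also highest there, with 34.5 and 36.2 CPM against 14.4 to 25.7 CPM elsewhere. These are the columns with 377 and 1461 CPM of Ucp1, the uncoupling protein of brown fat, against 0.146 to 37.5 CPM in the others. Without KO replicate 4 the log2 fold change KO vs WT of S100a1 turned from 1.04 (SE 0.74) to -0.16. S100a3, a protein of the hair cuticle, ran from 1.16 to 9.04 CPM with no order by genotype and a difference of -0.08 (SE 0.55).

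Receptors that S100 alarmins are known to engage were expressed in the skin in every genotype. All 9 on the list were tested, 0 were called in KO vs WT, 8 had a positive log2 fold change, and the median was 0.10. Nptn, which encodes the S100A8 receptor neuroplastin, was the single one of 9 at an unadjusted p below 0.05, near the share of 10.1% over all genes, with 97.5 ± 4.4 CPM in WT and 111 ± 13 in KO (log2 fold change 0.18, SE 0.08, edgeR adjusted p = 0.235). Tlr4 had 4.81 ± 0.817 and 5.15 ± 1.42 CPM, and Ager, which encodes RAGE, 2.03 ± 0.145 and 1.61 ± 0.573. Alcam had a log2 fold change of 0.22 (SE 0.14). Cd36 had one of 0.73 (SE 0.43), which was 0.14 without KO replicate 4, the column rich in brown adipocyte genes.

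Of 13 partners that constitutive S100 proteins bind, 13 were tested and 0 were called in KO vs WT, 1 was higher and 1 lower at an unadjusted p below 0.05, no more than the 10.1% and 9.18% of all genes, and the median log2 fold change was -0.05. Il1a, which encodes interleukin 1 alpha, had 7.39 to 16.2 CPM in WT and 0.426 to 7.38 CPM in KO, without overlap, a log2 fold change of -2.06 (SE 0.59, edgeR adjusted p = 0.113, called under 8 of 26 alternatives). Fgf1 had 6.52 ± 0.85 CPM in WT and 9.4 ± 2.59 in KO (0.53, SE 0.16, adjusted p = 0.125). Myh9, the myosin bound by S100A4, had a difference of 0.29 (SE 0.15), Trp53 one of 0.19 (SE 0.10), and Anxa2, the partner of S100A10, one of -0.05 (SE 0.08).

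Interleukin 17 induces S100A8 and S100A9 in keratinocytes through IL-17RA, the adaptor ACT1 (Traf3ip2) and NF-kB. A list of 12 genes covered this axis and other receptors and factors, among them Il1rl2 and Stat3. Of the 12 genes 10 were tested and 0 were called in KO vs WT. At an unadjusted p below 0.05, 5 were higher and 0 lower (10.1% and 9.18% of all genes). The median log2 fold change was 0.26 against -0.01 over all genes. Il17a was listed at 0 counts in all 15 columns and Il17f had a mean of 0.0173 CPM in WT and of 0.00851 CPM in KO, so neither could be compared at this depth. Traf3ip2 had 16.3 ± 0.954 CPM in WT and 20 ± 2.39 in KO (log2 fold change 0.29, SE 0.09, edgeR adjusted p = 0.118), and Il17ra 15.4 ± 1.03 and 18.8 ± 2.03 CPM (0.29, SE 0.09, adjusted p = 0.129). Il1rl2, the receptor of interleukin 36, and Stat3 had differences of 0.29 (SE 0.10) and 0.23 (SE 0.11). These genes differed by far less than S100a8 and S100a9 did.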

How the data were processed

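RNA was extracted from flash-frozen dorsal skin, and poly(A) RNA was made into directional libraries, per the labels. The deposited table holds raw counts per gene symbol, which the authors made from their reads. The submitters' processing notes name STAR and HTSeq without versions and the build hg19, a human build, although the symbols are those of mouse genes. Build, annotation and strand setting are thus not settled. Members and lists were chosen with earlier results of these data known.

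Libraries sharing title number and genotype were summed (24 libraries, 15 columns). After filterByExpr and TMM scaling, edgeR 4.0.16 (R 4.3.3) was fitted to all 3 genotypes together, and its robust quasi-likelihood test gave p-values, adjusted after Benjamini and Hochberg. Thresholds of 0.1 and 1 on the adjusted p and the log2 scale were those of the study. Its test was not at hand, so the count test was used. Scripts were tested on simulated data. DESeq2 1.42.0 and limma-voom (limma 3.58.1) were alternatives, besides RLE factors, total counts, no filter, single title series and left-out replicates. Log2 CPM for likeness used a prior count of 2. All members, called list genes, up to 4 list genes by smallest p and the nearest 5 genes of each alarmin (1 of each constitutive member) were named. Brown adipocyte genes, Krt6a, Krt6b, Krt16, Krt17, Ivl, Tlr4, Anxa2, Il17a and Il17f were named after their values were seen. So were the neutrophil genes Mpo, Ngp, Ly6g, Ctsg, Camp, Elane, Prtn3, Ltf, Cebpe, Mmp8, Csf3r and Itgam. Promoters and lengths came from RefSeq (GRCm38.p6) and GENCODE vM21.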

Additional observations from a re-analysis of the deposited data

Results flagged for a closer look

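Within groups of 5 columns, a column was singled out when its gap to the nearest other, divided by the range of the group on the log2 CPM scale, exceeded 0.710. Of 42 groups examined 4 met this, where chance gives about 1 in 20 groups, or 2.1. WT replicate 1 was the highest for S100a6, with a ratio of 0.815. WT replicate 4 was the highest for S100a8 (0.776) and for S100a9 (0.729), and it was the WT column that overlapped the KO group. HET replicate 3 was the highest of its group for the summed brown adipocyte genes (0.726). The results for S100a8 and S100a9 are not separate observations, since the 2 genes ran together over the columns.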

How the results depend on the processing

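The members called in KO vs WT were 0 in the analysis reported, 1 with RLE size factors (S100a8) and 2 (S100a8 and S100a9) with DESeq2, limma-voom, 24 separate libraries, title series 2 alone or number 35 as 2 columns. Leaving out 1 replicate gave 0 to 2, with 2 without WT replicate 4, KO replicate 3 or KO replicate 5. The genes called in KO vs WT were 55, against 197 without a fold limit, 190 with DESeq2, 106 with limma-voom, 15 with only the 2 genotypes compared, 221 with 24 separate libraries, 3 in series 1 alone and 138 with number 35 as 2 columns. They were 22 without both columns rich in brown adipocyte genes, an alternative chosen after seeing the data, and 20 to 240 when 1 replicate was left out. In KO vs HET they were 31, against 57 without a fold limit, 126 with DESeq2, 60 with limma-voom, 3 with only the 2 genotypes compared, 179 with 24 separate libraries, 3 in series 1 alone, 4 without both columns rich in brown adipocyte genes and 10 to 113 when 1 replicate was left out. In HET vs WT they were 0, with 0 to 1 when 1 replicate was left out. The cause was not tested, apart from the fewer columns in some fits.

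Of 777 values of the members under the alternatives 48 took the other sign, 47 of them within 1 SE of 0 in the analysis reported. The exception was S100a6 in KO vs HET, at -0.08 in series 1 alone. S100a1 in KO vs WT turned to -0.30 in series 1 alone and to -0.16 without both columns rich in brown adipocyte genes, and ran from -0.16 (without KO replicate 4) to 1.31 when 1 replicate was left out. With both left out, S100a8 and S100a9 had log2 fold changes KO vs WT of 1.18 and 1.17 (edgeR adjusted p = 0.207 and 0.194). S100a7a was not tested in 1 of the alternatives. No paired analysis was possible because the genotypes share no title numbers. Low depth limits S100a7a, Il17a and Il17f.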
